A study of Homo sapiens with 2 samples.

Results

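The clustered histone genes are the protein-coding genes whose RefSeq symbols begin with H1-, H2AC, H2BC, H3C or H4C followed by a digit. These symbols selected 74 genes of the 20037 protein-coding genes on the main chromosomes. A gene was counted as carrying a peak when a peak summit lay within 1 kb of either end of its record. The list holds 10 H1, 17 H2A, 19 H2B, 13 H3 and 15 H4 genes. Of these, 55 lie on chromosome 6, 13 on chromosome 1 and 6 on other chromosomes.

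The series has 1 library of DNA bound by a TCF4 antibody and 1 control library made with an IgG antibody, both from spheres of CAL-27 cells. CAL-27 is an established human tongue squamous carcinoma line. The labels give no genotype change, drug or time for either library. The TCF4 antibody library has a list of 26642 peaks on hg38, the IgG library was not analysed here, and peaks that do not need the TCF4 antibody were not separated from the rest. With 1 library there is no replicate check, so every value describes this library, and no test was run. The name TCF4 is used both for an E protein that binds E-boxes and for TCF7L2, a partner of beta-catenin, and which of these the antibody binds is not given in the labels. A peak list holds no expression, so the labelled cell type was not checked against its markers here.

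Histones package DNA. A core of H2A, H2B, H3 and H4 is wrapped by DNA, and linker H1 binds where the DNA enters and leaves. Most of the clustered genes are transcribed in S phase, when new chromatin is made, and their mRNAs end in a stem-loop instead of a poly(A) tail. Many H2A and H2B genes sit head to head and share the DNA between them. Transcription and mRNA processing take place at the histone locus body, which is organised by NPAT.

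The promoter windows below show the kind of DNA at which the peaks were or were not found. They run from 250 bases before the gene start to 50 after it, in the direction of transcription, and come from RefSeq on GRCh38.p14. They were found for 67 of the 74 genes. Those without one in the table used here include H4C1, H4C3, H2AC12, H2BC12L, H3C11 and H3C12. Capitals mark matches, on either strand, to the CCAAT box, to the TATA box as TATAAA, and to the core of the octamer, given as ATGCAAA. H2AC11, H2BC11 and H3C1 carried the strongest peak of the H2A, H2B and H3 genes. H2AC18 and H4C14 stand for near-identical copies on chromosome 1, and H2BC17 for a block of 16 genes on chromosome 6, and none of those 3 had a summit at an end.
H2AC11, chr6:27132793-27133092, plus strand: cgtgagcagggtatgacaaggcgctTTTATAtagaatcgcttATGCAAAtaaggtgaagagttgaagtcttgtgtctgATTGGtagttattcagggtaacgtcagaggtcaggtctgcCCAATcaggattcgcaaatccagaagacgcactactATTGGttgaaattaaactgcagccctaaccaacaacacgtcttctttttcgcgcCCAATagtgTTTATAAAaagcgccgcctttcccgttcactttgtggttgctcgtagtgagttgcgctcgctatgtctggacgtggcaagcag
H2BC11, chr6:27132746-27133045, minus strand: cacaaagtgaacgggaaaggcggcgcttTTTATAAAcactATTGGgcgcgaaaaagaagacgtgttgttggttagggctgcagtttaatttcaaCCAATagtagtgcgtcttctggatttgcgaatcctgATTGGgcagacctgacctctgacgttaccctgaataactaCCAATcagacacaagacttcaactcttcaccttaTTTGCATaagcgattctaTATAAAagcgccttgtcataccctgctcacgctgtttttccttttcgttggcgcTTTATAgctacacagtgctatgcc
H3C1, chr6:26020201-26020500, plus strand: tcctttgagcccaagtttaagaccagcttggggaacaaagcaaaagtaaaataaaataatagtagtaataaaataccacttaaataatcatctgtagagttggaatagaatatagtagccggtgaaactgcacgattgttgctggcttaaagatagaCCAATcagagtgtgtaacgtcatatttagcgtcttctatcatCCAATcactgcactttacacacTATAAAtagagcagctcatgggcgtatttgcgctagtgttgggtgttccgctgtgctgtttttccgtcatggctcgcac
H2AC18, chr1:149842701-149843000, minus strand: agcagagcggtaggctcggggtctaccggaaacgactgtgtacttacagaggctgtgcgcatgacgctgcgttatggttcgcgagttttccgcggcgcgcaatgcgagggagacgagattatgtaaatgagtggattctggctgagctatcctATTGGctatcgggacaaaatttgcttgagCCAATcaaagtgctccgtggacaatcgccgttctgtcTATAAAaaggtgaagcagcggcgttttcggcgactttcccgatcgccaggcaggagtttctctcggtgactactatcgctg
H4C14, chr1:149832407-149832706, plus strand: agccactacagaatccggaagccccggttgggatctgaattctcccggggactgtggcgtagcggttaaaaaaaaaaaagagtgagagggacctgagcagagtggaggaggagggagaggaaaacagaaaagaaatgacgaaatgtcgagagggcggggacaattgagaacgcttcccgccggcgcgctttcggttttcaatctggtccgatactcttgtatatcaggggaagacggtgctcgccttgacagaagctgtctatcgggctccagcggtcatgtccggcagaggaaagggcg
H2BC17, chr6:27893175-27893474, plus strand: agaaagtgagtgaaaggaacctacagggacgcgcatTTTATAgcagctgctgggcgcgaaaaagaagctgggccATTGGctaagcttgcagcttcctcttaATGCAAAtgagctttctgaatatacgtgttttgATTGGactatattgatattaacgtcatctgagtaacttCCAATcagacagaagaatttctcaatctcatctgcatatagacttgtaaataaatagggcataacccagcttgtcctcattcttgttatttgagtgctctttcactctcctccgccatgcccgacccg

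The H2AC11 and H2BC11 windows overlap, since the genes start 248 bp apart on opposite strands. The shared stretch holds 4 CCAAT matches, and the peak summit between both genes falls on base 114 of the H2AC11 window and base 140 of the H2BC11 window. Neither of these windows holds an E-box, CANNTG. The H2BC17 window holds 4 E-box matches, 1 of them CAGCTG, and has no summit in it. The H4C14 window holds none of the 3 marked motifs.

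Few clustered histone genes carried a peak. A summit lay at an end of 15 of 74 (20.3%, Wilson 95% interval 12.7 to 30.8%), against 41.2% of all protein-coding genes (8248 of 20037). The 15 genes shared 12 distinct peaks, and intervals over genes therefore cover less than the true counting error. The strongest peak at each of the 15 genes had a median fold enrichment of 5.08, against 6.38 over all genes with a peak at an end. The fold is the authors' value. It matches the fragments at the summit plus 1, divided by the peak caller's local background plus 1, so at these low backgrounds it is smaller than the plain ratio. The 12 peaks rested on a median of 8 fragments, against a median of 12 for the 8585 peaks at protein-coding gene ends. Their median width was 157 bp, against 242 bp. Their median local background was 0.707 fragments, against 1.09.

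**Figure D1:**
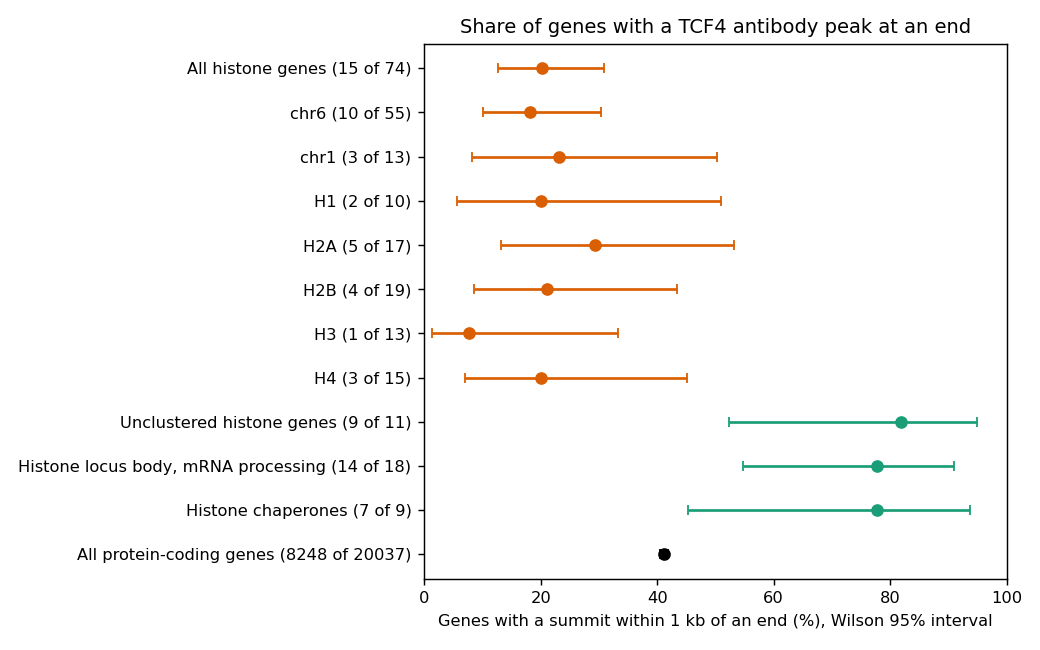
Share of genes with a summit within 1 kb of an end (horizontal axis, percent), with points at the measured share and bars for the Wilson 95% interval. The clustered histone genes on chromosomes 6 and 1, and the 5 classes, lie between 7.69% and 29.4%, the unclustered histone genes, locus body factors and chaperones lie between 77.8% and 81.8%, and all protein-coding genes stand at 41.2%.

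The share was also low among well-supported peaks. At a −log10 q of 5 or more, 7 of 74 histone genes had a summit at an end (9.46%), against 27.1% of all protein-coding genes. Of the 12 peaks, 4 passed that threshold. Clustered histone genes are short, with a median record of 496 bp against 24115 bp over all protein-coding genes, so their 1 kb windows overlap. Among the 466 other protein-coding genes of at most 1 kb, 10.3% had a summit at an end. For the 62 histone genes of at most 1 kb the share was 19.4% (Wilson interval 11.4 to 30.9%).

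On chromosome 6, 10 of 55 histone genes had a summit at an end (18.2%, Wilson interval 10.2 to 30.3%), and on chromosome 1, 3 of 13 had one (23.1%, Wilson interval 8.18 to 50.3%). The difference of chromosome 6 minus chromosome 1 was -4.90 percentage points, with an interval of -33.2 to 14.3. The data therefore do not separate the clusters and do not show that they are alike. The chromosome 1 genes include the near-identical copies H4C14, H4C15, H2AC18, H2AC19, H3C14 and H3C15, and those of chromosome 6 include H4C11 and H4C12. The absence of a peak at these copies is uncertain, and the chromosomes were not compared without them. The other protein-coding genes of chromosome 6 had a share of 45.1%, and those of chromosome 1 had 43.7%. Within each chromosome the peaks were unevenly placed.

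**Figure D2:**
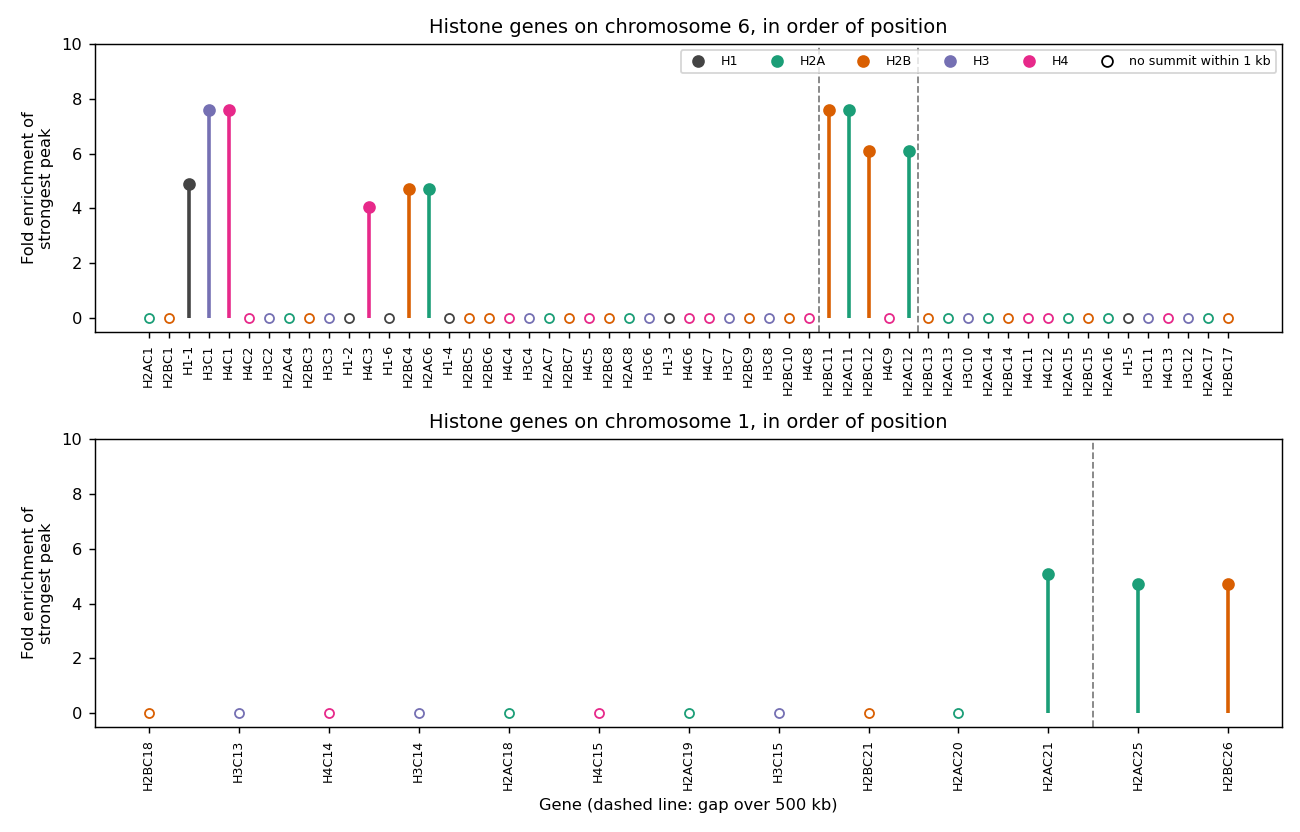
Histone genes of chromosome 6 (upper panel) and chromosome 1 (lower panel) in order of position along the horizontal axis, with the fold enrichment of the strongest peak at an end on the vertical axis. Filled points are coloured by histone class, open points at 0 mark genes with no summit within 1 kb, and dashed lines mark gaps of over 500 kb. Peaks sit in 2 of the 3 blocks of chromosome 6, and the right-hand block of 16 genes has none.

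The chromosome 6 genes fell into 3 blocks separated by over 500 kb. The first, from 25726063 to 26285534, holds 34 genes, and 6 of them had a summit at an end. All 6 lie in its first part, from H1-1 to H2AC6, and the 19 genes after H2AC6 had none. H1-1, a somatic linker histone gene, had a peak at chr6:26017722-26017881 with a fold of 4.91 on 8 fragments, and its summit lay 44 bp into the gene. H3C1 and H4C1 shared a peak at chr6:26021529-26021901 with a fold of 7.61 on 14 fragments (exact Poisson interval 7.65 to 23.5), the highest fold on chromosome 6 for any histone gene. That summit lay inside H4C1, 64 bp from its low-coordinate end, and 755 bp beyond the finish of H3C1. The H3C1 promoter window printed above is therefore not where its peak was.

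H4C3 had the weakest peak of the list, at chr6:26104162-26104285, with a fold of 4.07 on 5 fragments. H2BC4 and H2AC6, a head-to-head pair, shared a pair of peaks. One, at chr6:26123885-26124028, had a fold of 4.66 on 6 fragments, with its summit 39 bp into H2BC4. The other, at chr6:26124361-26124572, had a fold of 4.70 on 6 fragments, with its summit 344 bp into H2AC6. Both summits lay inside the genes, and none fell in the 246 bp between the starts.

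The second block, from 27132316 to 27147562, had the densest peaks of the 3 on chromosome 6: 4 of its 5 genes had a summit at an end, on 3 peaks within 15.2 kb. H2BC11 and H2AC11 shared the peak at chr6:27132746-27133009, with a fold of 7.60 on 11 fragments (exact Poisson interval 5.49 to 19.7). Its summit lay 111 bp before the start of H2BC11 and 137 bp before that of H2AC11, and the peak covered 217 bases of the H2AC11 window printed above. A second peak, at chr6:27132537-27132641, had a fold of 5.70 on 8 fragments and lay 223 bp into H2BC11. H2BC12 and H2AC12 shared the peak at chr6:27147131-27147334, with a fold of 6.10 on 8 fragments, 383 bp before the start of H2BC12 and inside the H2AC12 record. H4C9, the remaining gene of the block, lay 6376 bp from the nearest summit.

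The third block, from 27807479 to 27893891, held no summit. None of its 16 genes, among them H2AC13, H3C10, H3C11, H1-5 and H2BC17, had one at an end, which allows a share of up to 18.8% taken as 3 counts of the total, or 19.4% as the Wilson upper limit. The nearest summit to these genes lay 34992 to 120938 bp away.

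The chromosome 1 genes formed 2 blocks. In the first, from 149782689 to 149887965, 1 of 11 genes had a summit at an end. That gene, H2AC21, had a peak at chr1:149888395-149888548 with a fold of 5.08 on 9 fragments, and its summit lay 565 bp before the start. H2AC20 and H2BC21 lay 1119 and 1848 bp from the same summit, just outside the window. H4C16 on chromosome 12 and H3C1, at 626 and 755 bp from an end, were the genes farthest out inside the window. The other 8 genes of the block, H2BC18, H3C13, H4C14, H3C14, H2AC18, H4C15, H2AC19 and H3C15, had none. The second block holds H2AC25 and H2BC26, a head-to-head pair with starts 230 bp apart. They shared 1 peak at chr1:228457476-228457608, with a fold of 4.71 on 8 fragments. Its summit lay 307 bp into H2AC25 and 537 bp before the start of H2BC26.

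Copies on chromosome 1 limit what can be read there. The promoter windows of H4C14 and H4C15 were identical over 300 bases, and those of H2AC18 and H2AC19 and of H3C14 and H3C15 were identical over 299 and 296 aligned bases. On chromosome 6, H4C11 and H4C12 matched at 98.3% of bases. Reads from such copies can be split or dropped when they are aligned, so the absence of a peak at these 8 genes is uncertain. None of the 8 had a summit at an end, and without them 15 of 66 genes did (22.7%).

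Outside both chromosomes, H4C16, a lone H4 gene on chromosome 12, had a peak at chr12:14769973-14770109 with a fold of 4.43 on 8 fragments. Its summit lay 626 bp beyond the finish of the gene and 563 bp from the start of LOC105369669. H1-7, H1-8, H1-10 and H2BC12L had none. H1-7 and H1-8 are the linker histones of male germ cells and of oocytes.

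The histone classes were not separated by their shares. H2A genes had a summit at an end in 5 of 17 cases (29.4%, Wilson interval 13.3 to 53.1%) and H2B genes in 4 of 19 (21.1%, 8.51 to 43.3%). H1 genes had one in 2 of 10 (20.0%, 5.67 to 51%) and H4 genes in 3 of 15 (20.0%, 7.05 to 45.2%). H3 genes had the lowest count, 1 of 13 (7.69%, 1.37 to 33.3%), and that gene, H3C1, shares its peak with H4C1. H2A genes minus the other classes differed by 11.9 percentage points, with an interval of -8.13 to 36.8, and H3 genes minus the other classes by -15.3, with an interval of -28.8 to 11.8. Genes of each class without a summit at an end included H1-10 and H1-2, H2AC1 and H2AC13, H2BC1 and H2BC10, H3C10 and H3C11, and H4C11 and H4C12. H2AC1 and H2BC1, the testis forms of H2A and H2B, lay at the outer edge of the first chromosome 6 block.

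The strand given with the promoter windows allowed starts and finishes to be told apart for 67 histone genes. A summit lay within 1 kb of the start in 9 of 67 (13.4%, Wilson interval 7.23 to 23.6%), against 41.3% of the 15843 protein-coding genes with a window. A summit lay within 1 kb of the finish in 8 of 67 (11.9%), against 4.80%. Among the 349 other protein-coding genes of at most 1 kb with a window, the shares were 10.6% at starts and 9.46% at finishes. The 67 histone genes also include records over 1 kb. H4C1, H4C3 and H2AC12, left out for want of a strand, had a summit within 1 kb of both ends. Each therefore has one at its start and at its finish that the shares of the 67 genes do not count. Because the records are short, 6 histone genes had the same summits counted at both ends or a summit near each. Inside the 300-base window itself, 4 histone genes had a summit (5.97%, Wilson interval 2.35 to 14.4%), against 30.0% of the protein-coding genes. These were H1-1, H2AC11, H2BC11 and H2BC4. Of the 12 peaks at histone genes, 8 had their summit inside a histone gene record (66.7%, Wilson interval 39.1 to 86.2%), against 47.9% of the 8585 peaks at protein-coding gene ends that lay inside the gene they flank.

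**Figure D3:**
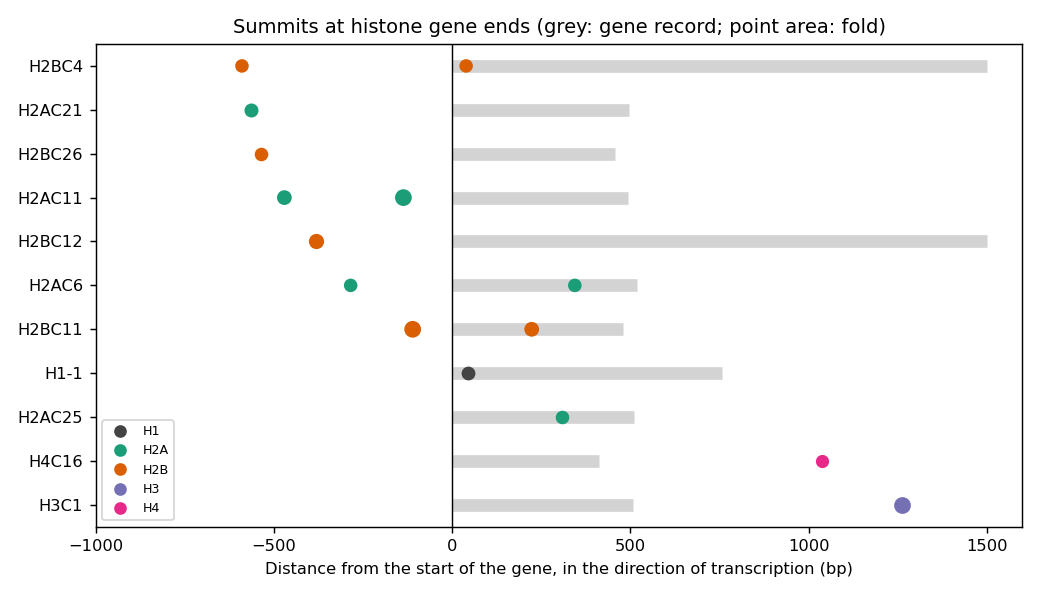
Distance of each summit from the start of the histone gene in the direction of transcription (horizontal axis, bp), for the 11 genes with a summit at an end and a known strand. Grey bars are the gene records, those of H2BC4 and H2BC12 being cut off at the right, points are summits coloured by class, and point area is proportional to the fold. The strongest summit of the H2AC11 and H2BC11 pair lies 137 and 111 bp before their starts, and those of H3C1 and H4C16 lie beyond the finish.

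Peaks were seldom found between the starts of head-to-head histone genes. With starts at most 1 kb apart, 12 pairs of histone genes were found, 11 of them with gaps of 194 to 248 bp. Genes without a known strand could not be paired. Among them was H2AC12, which lies beyond the start of H2BC12 and shares its peak. A summit lay between the starts in 1 pair, H2BC11 and H2AC11 (8.33%), against 41.4% of all 804 such protein-coding pairs. With 1 kb added on both sides, 3 of 12 histone pairs had a summit (25%, Wilson interval 8.89 to 53.2%), against 68.7% of all pairs. The other pairs with a summit were H2BC4 and H2AC6, and H2AC25 and H2BC26. In the first chromosome 6 block, H3C4 and H2AC7 have records that begin at the same base, so they share a window.

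Histone promoters are poor in GC, and genes with poor GC carried peaks less often in this library as a whole. The median GC of the 67 windows was 43.3%, with a range of 36.3 to 68.7%, against 62.7% over 15843 protein-coding genes. H2A, H2B and H3 windows had medians of 42.0%, 42.2% and 41.3%, and H4 and H1 windows had 48.0% and 51.7%. The windows held a median of 11 CpG pairs, against 22. Histone genes with a summit at an end and those without had like medians, 43.3% and 43.5%. Among other protein-coding genes, the share with a summit at an end was 7.27% below 40% GC, 13.3% at 40 to 50%, 34.8% at 50 to 60%, 53.9% at 60 to 70% and 59.3% above.

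At the GC where most histone genes lie, their share was not lower than that of other genes. Between the quartiles of the histone windows, 40.7 and 48.0% GC, 8 of 34 histone genes had a summit at an end (23.5%, Wilson interval 12.4 to 40.0%), against 11.7% of 1356 other protein-coding genes. Those 8 include H2BC4 with H2AC6 and H2BC11 with H2AC11, pairs that share peaks, so the interval is too narrow. At 40 to 50% GC the counts were 10 of 41 histone genes (24.4%, 13.8 to 39.3%), against 250 of 1884 other genes. At 50 to 60% GC they were 1 of 10 histone genes, against 1232 of 3543 other genes. Those 10 include the near-identical copies H4C14, H4C15, H2AC18, H2AC19, H3C14 and H3C15, at which the absence of a peak is uncertain. Below 40% GC none of 14 histone genes had a summit at an end, against 66 of 908 other genes. At 60 to 70% GC, 0 of 2 histone genes had one, against 2891 of 5364 other genes. Histone genes without a window are left out, among them H4C1, H4C3 and H2AC12, which had a summit at an end. Whether GC accounts for the low share of the histone genes was not tested.

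**Figure D4:**
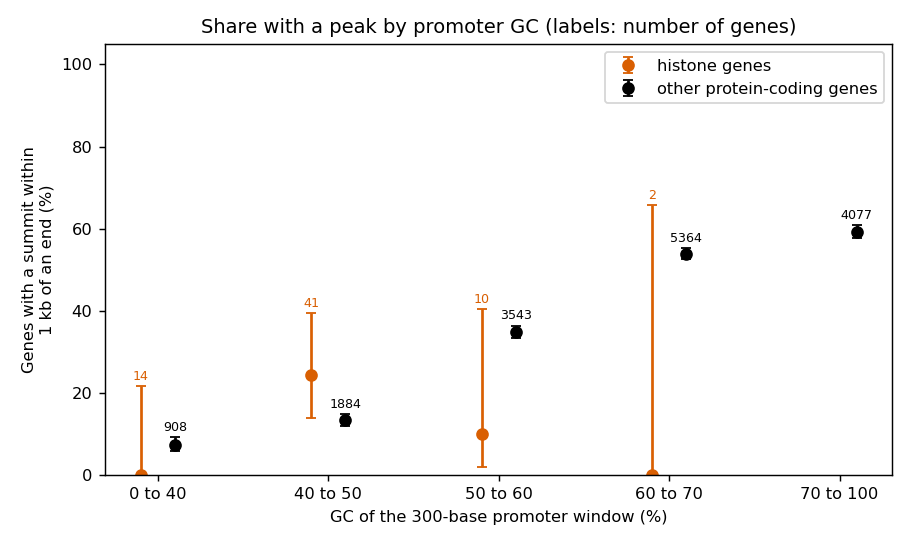
Share of genes with a summit within 1 kb of an end (vertical axis, percent) by GC of the promoter window (horizontal axis, percent), for histone genes left of other protein-coding genes. Points are shares, bars are Wilson 95% intervals and labels give the number of genes. At 40 to 50% GC, which holds 41 of the 67 histone genes, the share is 24.4% for histone genes and 13.3% for other genes.

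The letters of the windows were searched for 8 motifs on both strands. CCAAT, bound by NF-Y, was in 56 of 67 histone windows (83.6%), against 34.6% of all 35116 windows in the table. It was in all 16 H2A, all 18 H2B and all 11 H3 windows, in 8 of 9 H1 windows and in 3 of 13 H4 windows. TATAAA was in 43 of 67 (64.2%), against 11.5%. ATGCAAA, the core of the octamer that OCT1 binds at H2B genes, was in 26 of 67 (38.8%), against 4.46%. Those 26 comprised 14 of 18 H2B, 11 of 16 H2A and 1 of 11 H3 windows. With 1 window for each of 15843 protein-coding genes, the shares were 36.4% for CCAAT, 9.75% for TATAAA and 3.75% for ATGCAAA. Head-to-head genes share much of their windows, so these counts are not independent. The H3C4 window, counted among the H3 windows, is identical to that of H2AC7, counted among the H2A windows.

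The E-box, the site of E proteins, and the TCF/LEF core were searched in the same way. An E-box, CANNTG, was in 46 of 67 histone windows (68.7%), against 68.7% of all windows. Of its forms, CAGCTG was in 12 (17.9%), against 17.9%, CACCTG was in 4 (5.97%), against 20.6%, and CACGTG was in 0 of 67, against 7.26%. CTTTGAT, a TCF/LEF core, was in 2 (2.99%), against 2.62%. With 1 window for each of 15843 protein-coding genes, as for the histone genes, the shares were 64.6% for CANNTG and 17.5% for CAGCTG. They were 19.9% for CACCTG, 8.82% for CACGTG and 1.96% for CTTTGAT. Among the 11 histone genes with a window and a summit at an end, 6 held an E-box and none held CTTTGAT. Among the 56 without a summit, 40 held an E-box and 2 held CTTTGAT. Those 2 were the near-identical windows of H2AC18 and H2AC19, so they are not independent. The absence of a peak at these copies is uncertain. These are matches of letters in 300 bases, and most summits at histone genes lay outside the windows. The shares of all 8 motifs were not matched for GC. Its median was 43.3% in the histone windows and 62.7% over 15843 protein-coding genes.

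**Figure D5:**
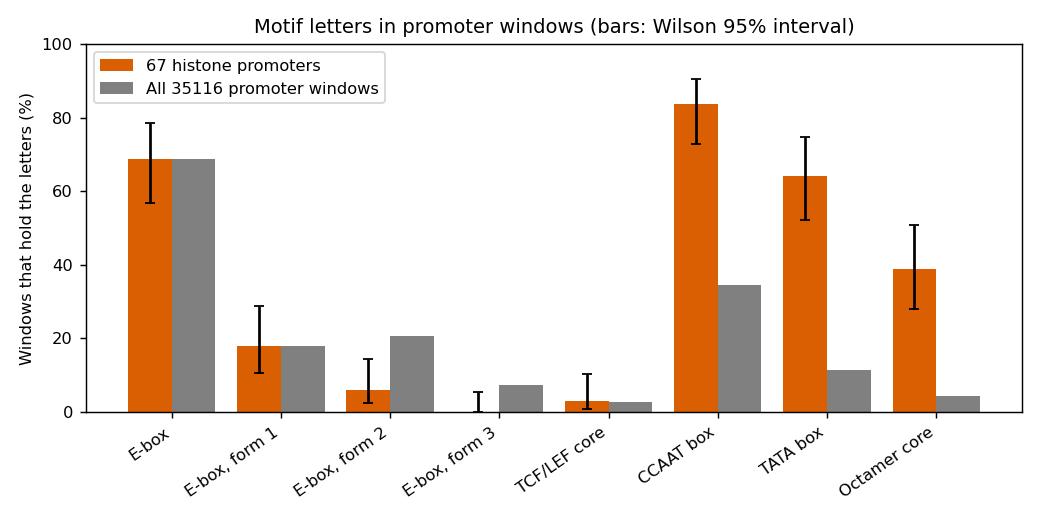
Share of promoter windows that hold each motif on either strand (vertical axis, percent), for 67 histone windows (left bar of each pair, with Wilson 95% interval) and all 35116 windows (right bar). The E-box is CANNTG, form 1 of it is CAGCTG, form 2 is CACCTG and form 3 is CACGTG. The TCF/LEF core is CTTTGAT, and the octamer core is ATGCAAA. The CCAAT, TATA and octamer letters are in more of the histone windows, while the E-box share is 68.7% in both. With 1 window for each of 15843 protein-coding genes, not drawn here, the E-box share is 64.6%. The windows were not matched for GC.

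Histone genes outside the selected symbols had a summit at an end more often than the selected ones, by counts alone. This split follows symbols, not position. The selected set holds 6 genes outside chromosomes 6 and 1. H3-4, at chr1:228424845-228425360, is on the unclustered list but lies near the selected H2AC25 and H2BC26. Unclustered variant genes are mostly transcribed through the cell cycle. Of 11 such genes, 9 had a summit at an end (81.8%, Wilson interval 52.3 to 94.9%), against 20.3% of the clustered genes and 41.2% of all protein-coding genes. H2AZ2, a variant of H2A found beside gene starts, had a fold of 13.6 on 38 fragments, 40 bp before its start. H2AX, the variant marked at DNA breaks, had 8.41 on 16 fragments, and CENPA, the centromere form of H3, had 7.82 on 13. The H3.3 genes H3-3A and H3-3B had folds of 8.91 and 6.43. MACROH2A2 had 5.56, MACROH2A1 5.30, H2AZ1 4.97 and H2AJ 4.79. H3-4 and H3-5 had no summit at an end. The windows of 10 of these genes had a median GC of 58.2%.

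Genes whose products run the histone genes also carried peaks often. Of 18 histone locus body and histone mRNA processing genes, 14 had a summit at an end (77.8%, Wilson interval 54.8 to 91.0%). The share over all protein-coding genes was 41.2%. NPAT, the organiser of the locus body, had a fold of 12.2 on 17 fragments, 180 bp before its start. CASP8AP2 had 9.80 on 19 fragments, and COIL, the coilin gene, had 4.75 on 6. Among transcription factors of histone genes, HINFP, which acts at H4 promoters, had a fold of 9.78, POU2F1, which encodes OCT1, had 9.31, and YY1 had 9.04. CRAMP1 had 9.28, GON4L 9.88 and the histone-binding protein RBBP4 8.09.

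In mRNA processing, ZNF473 had the highest fold of that list, 14.7 on 35 fragments. The scaffold SYMPK had 10.5, the stem-loop binding protein SLBP 7.34, the endonuclease CPSF3 7.05 and the U7 particle protein LSM11 5.42. LSM10, CPSF2, ERI1 and CSTF2 had no summit at an end. Of 9 histone chaperones, 7 had one (77.8%, Wilson interval 45.3 to 93.7%), against 41.2% of all protein-coding genes. They were CHAF1A at 13.6, ASF1B at 11.3, DAXX at 10.1, HIRA at 7.82, NASP at 7.52, CHAF1B at 6.82 and ASF1A at 5.93. HJURP and ATRX had none. The windows of locus body and processing genes had a median GC of 64.8% and those of chaperones 65.7%, against 43.3% for the clustered histone genes. Among other protein-coding genes at 60 to 70% GC, 53.9% had a summit at an end.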

How the data were processed

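The 1 peak list of the TCF4 antibody library was used. Per the submitters' processing notes, the tools were Bowtie2 2.3.5.1, SAMtools and MACS2 2.2.7.1 on hg38. Settings, and the control given to the caller, are not given in the sources used here. The deposited fold is a ratio of fragments at the summit to the local background, with 1 added to both, the −log10 p and −log10 q values (p-value and q-value) are the authors' at the summit, and the authors' score, a truncated multiple of the −log10 q, was not used. Fragments were solved from fold and p-value as the caller defines them, and 26642 peaks gave back their p-value to within 0.0001 of its −log10. Total depth is not given, and intervals cover counting error only.

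Genes and promoter windows came from RefSeq tables for GRCh38.p14, the assembly that hg38 names. Blocks were runs of genes with gaps of at most 500 kb. Shares carry Wilson 95% intervals, and differences of shares Newcombe intervals. Named were the genes with the highest folds, up to 2 per class without a summit, all members on chromosome 1 and off both chromosomes, and the lists' genes. The list of 13 unclustered genes includes the older symbols H2AW and H2BU1 of H2AC25 and H2BC26, which left 11. Values of 1 member are not reported here. The members and lists were chosen with earlier results of these data known. The comparisons by GC, by gene length, by promoter window and by head-to-head pairs, and the setting without near-identical copies, were added after seeing the data, and the printed windows without a summit were picked as illustrations. The steps were tested on simulated summits and peaks. The tools were SciPy 1.17.1 and NumPy 2.4.6 for statistics, pandas 2.3.3 for tables and Matplotlib 3.10.9 for plots, under Python 3.11.15.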

Additional observations from a re-analysis of the deposited data

How the results depend on the processing

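The share of histone genes with a summit at an end lay below that of all protein-coding genes in the main setting and in all 8 others applied to both. With a −log10 q of at least 5, the share was 9.46% over all histone genes (27.1% of all protein-coding genes), 0% on chromosome 1, 11.8% for H2A and 6.67% for H4 genes. At 10 it was 1.35% (14.1% of all protein-coding genes) and 0% on chromosome 6, on chromosome 1 and for H2A, H2B, H3 and H4 genes, too few genes for a median fold. With each summit given to its nearest gene end, the share was 12.2% (36.2% of all protein-coding genes) and 0% for H3 genes. Within 500 bp of an end, chromosome 1 stood at 7.69% and H3 genes at 0%. At starts alone, H3 and H4 genes stood at 0%, with H4C1 and H4C3 left out because their strand is not known here, although both have a summit within 1 kb of either end. The settings of 2 kb, any overlap of the peak, and no peaks in the densest 10% of backgrounds left all of these values inside their main intervals. No paired analysis was possible because each antibody has 1 library. The 12 peaks rest on a median of 8 fragments, which limits the precision of each fold, and the total depth is unknown.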

Other observations

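Other genes between the outermost histone genes of chromosome 6, a stretch of 2.17 Mb, carried few peaks as well. Over all protein-coding genes of chromosome 6 outside the histone list, 45.1% had a summit at an end. Of the 20 in this stretch, 3 had one (15.0%, Wilson interval 5.24 to 36.0%). These were HMGN4, a nucleosome-binding protein gene, with a fold of 6.37, the butyrophilin gene BTN2A2 with 6.06 and the zinc finger gene ZNF184 with 4.75. HFE, the haemochromatosis gene, TRIM38 and the phosphate transporter genes SLC17A1, SLC17A2, SLC17A3 and SLC17A4 overlap the first histone block and had none. The stretch held 14 summits, and 6 of them were not at a histone gene. Between H1-10 and H1-8 on chromosome 3, the neighbouring genes MBD4 and IFT122 shared a peak with a fold of 11.0, above every peak at a clustered histone gene.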
